A study of Mus musculus with 20 samples.

Results

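Translation initiation and elongation factors load ribosomes onto messenger RNA, find the start codon and move the ribosome along the message. Their genes were followed here in mouse blood stem and progenitor cells. A gene belonged to the set if its Ensembl identifier carried a protein-coding symbol that begins with Eif1 to Eif6 or with Eef1 or Eef2. The 4 Eif2ak kinases and the Y-linked Eif2s3y were left out. This left 62 of the 45706 gene identifiers in the table, 50 with an Eif symbol and 12 with an Eef symbol. The rule uses names and no measured value, but it was chosen with earlier results of these data known. The cells were sorted by flow cytometry from the bone marrow of 8-week-old C57BL/6 mice, and libraries were made with the Nextera XT kit. Hopx-knockout (KO) mice gave 3 libraries each of MPP2, MPP3 and LT-HSC. Hopx-wildtype (WT) mice gave 3 of MPP2, 4 of MPP3 and 4 of LT-HSC, 20 libraries in all. LT-HSC are long-term haematopoietic stem cells, and MPP2 and MPP3 are multipotent progenitors of type 2 and type 3. The labels give neither the kind of Hopx allele, nor the sort gates, nor whether libraries came from separate animals. The p-values therefore measure the spread between these libraries, which may be technical.

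As background, translation starts when eIF2, bound to GTP and the initiator tRNA, joins the small ribosomal subunit with eIF1, eIF1A, eIF3 and eIF5. The eIF4F complex, made of the cap-binding protein eIF4E, the scaffold eIF4G and the helicase eIF4A, brings in the message. eIF2B recharges eIF2 with GTP, a step that the integrated stress response blocks, while eIF4E-binding proteins hold eIF4E back when mTORC1 is inactive. During elongation eEF1A delivers charged tRNAs and eEF2 moves the ribosome, and eEF2 kinase slows that step by phosphorylating eEF2. Blood stem cells are known for a low rate of protein synthesis relative to their progenitors.

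Reads assigned to genes ranged from 11163345 to 15189909 per library. Values below are counts that the authors divided by a size factor per library, called normalized counts, unless stated otherwise. Hopx was at 0 in all 9 KO libraries and at 11.0 to 61.2 in 10 of 11 WT libraries. It was also at 0 in the library labelled WT LT-HSC replicate 4. The summed level of 12 stem cell markers was 4487 to 11343 in MPP2, 2994 to 6527 in MPP3 and 15444 to 23266 in LT-HSC, so LT-HSC stood above both progenitors. The summed level of 7 mature neutrophil markers was 8026 to 25163 in 5 libraries, KO LT-HSC replicate 1, WT LT-HSC replicate 2, WT MPP2 replicate 2 and WT MPP3 replicates 2 and 3, and 56.2 to 976 in the other 15. In WT MPP2 replicate 3 the summed level of 7 early lymphoid genes was 12274, in the range of MPP3. Granulocyte and monocyte precursor genes summed to 36945 in WT MPP2 replicate 1, 25322 in KO MPP2 replicate 2 and 75664 in WT MPP2 replicate 3. Their sum was 1454 to 2926 in the other MPP2 libraries and 19693 to 150196 in MPP3. Megakaryocyte and platelet genes summed to 3598 in WT MPP2 replicate 3 and to 13720 to 76118 in the other MPP2 libraries. Fewer cells of a type and less RNA per cell cannot be told apart in such bulk libraries.

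Promoter sequence was looked at for what the set shares beyond its names. RefSeq windows (GRCm38.p6) of 250 bases before and 50 after the annotated start were found for 46 of the 62 genes, matched by symbol. The letters CACGTG, an E-box that reads the same on both strands and is bound by MYC-family proteins, were in at least 1 window of 12 of the 46 genes (26.1%). The share was 8.09% over all 27025 genes with a window and 11.5% over the 11006 that were tested for expression. Among tested genes whose window held at least 60% G and C, 13.4% had the letters, against 9 of the 30 such translation factor genes. All 3 parts of eIF4F were represented, by Eif4e, Eif4a1 and Eif4g1. Their paralogs Eif4e2, Eif4a2 and Eif4g3 had windows without the letters. The other genes with a match were Eif1b, Eif3a, Eif3f, Eif3k, Eif4h, Eif5a, Eif5a2, Eef2 and Eef2k. A match describes letters in a window and does not show binding. The windows below belong to the eIF4F subunits, to Eef2k and Eif1b, which differed between populations, and to Eef2, whose product the kinase Eef2k acts on. Each is written 5′ to 3′ on the strand of the gene, upstream of the start, with the E-box in capitals.
Eif4e, chr3:138527192-138527221, plus strand: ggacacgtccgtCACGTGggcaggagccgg
Eif4a1, chr11:69672595-69672624, minus strand: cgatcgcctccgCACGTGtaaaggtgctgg
Eif4g1, chr16:20672661-20672690, plus strand: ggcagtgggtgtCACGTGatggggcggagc
Eef2, chr10:81176576-81176605, plus strand: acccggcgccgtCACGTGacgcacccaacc
Eef2k, chr7:120842788-120842817, plus strand: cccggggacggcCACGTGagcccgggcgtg
Eif1b, chr9:120492570-120492599, plus strand: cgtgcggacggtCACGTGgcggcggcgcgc
The first base of CACGTG lies at position -64 from the start in Eif4e, -189 in Eif4a1, -54 in Eif4g1, -43 in Eef2, -31 in Eef2k and -24 in Eif1b. Eif4e and Eif4g1 held a further match each that is not shown, and the match of Eif3a is not shown either. A start at a C that opens an unbroken run of C or T is the pattern of messages whose translation follows mTORC1. A run of at least 5 that opened at the annotated base was found in 2 of the 46 genes (4.35%), Eif2s3x and Eif3f. Over all genes the share was 3.01%. Runs that open a few bases from the annotated start were not counted. These shares can therefore miss such messages and do not say how common they are in the set.

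The 62 genes took 1.27 to 1.75% of the gene reads of a library. To compare genes, reads were scaled by exon length and by the gene reads of the library (RPKM). Eif5a, at 749 RPKM, and the elongation factor gene Eef1a1, at 733 RPKM, stood highest. eIF5A helps the ribosome through difficult peptide bonds. Eef2 followed at 289 RPKM and Eef1b2, a nucleotide exchange subunit of eEF1, at 238 RPKM. Of the 14 genes for eIF3, the largest initiation factor, 12 lay between 43.6 RPKM for Eif3e and 167 RPKM for Eif3g. The remaining pair, Eif3j1 and Eif3j2, encodes a loosely bound subunit and had 4.61 and 23.7 RPKM. The 5 eIF2B subunit genes lay between 9.54 RPKM for Eif2b3 and 49.7 RPKM for Eif2b1. Within eIF4F, Eif4e had 41.6 RPKM, Eif4a1 31.6 RPKM and Eif4g1 15.4 RPKM. Eif4ebp1 was the main eIF4E-binding protein gene at 77.6 RPKM, and Eif4ebp2 had 1.59 RPKM.

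**Figure D1:**
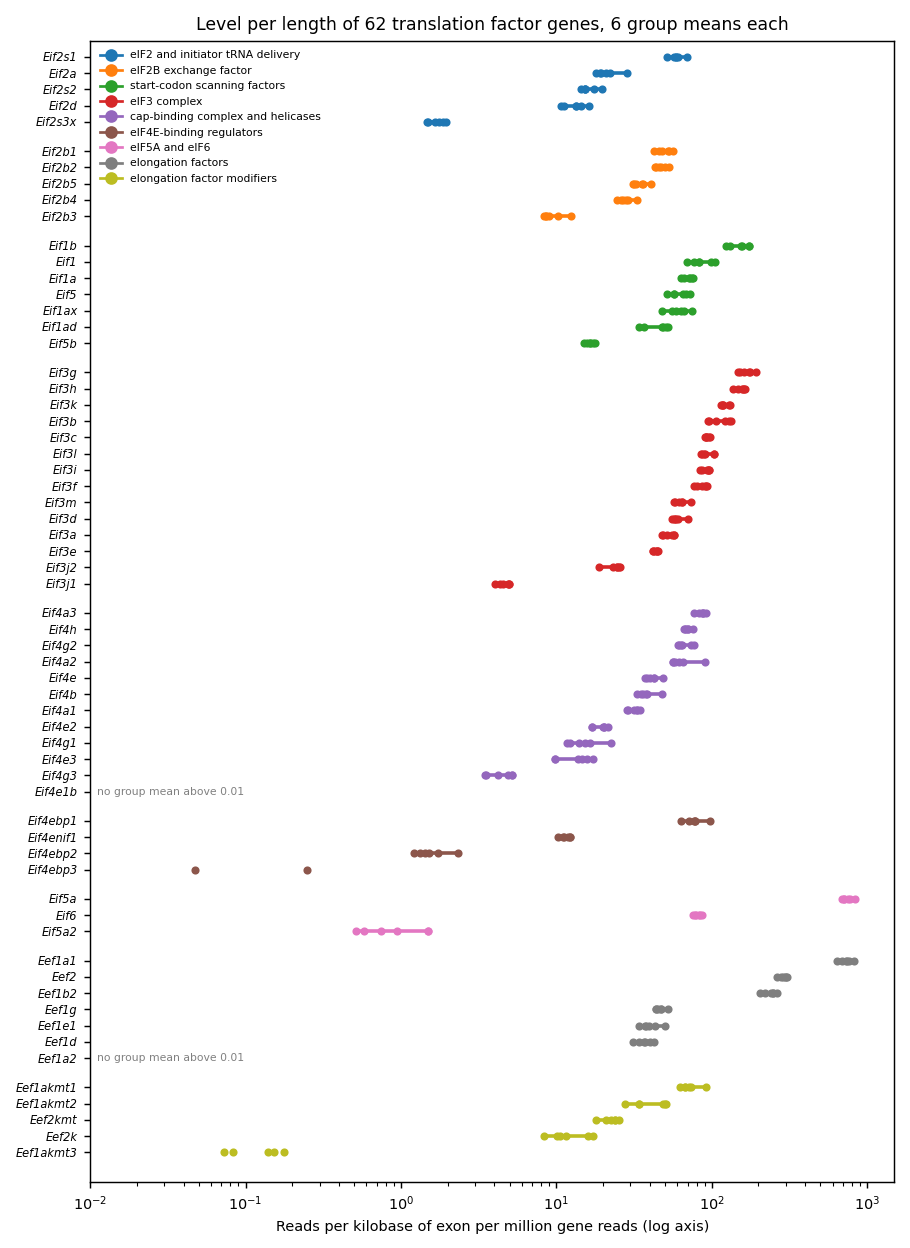
Level per length of the 62 translation factor genes, grouped by role (1 colour per role). Each point is the mean of 1 of the 6 groups in RPKM on a log axis, with a line from the lowest to the highest group mean; group means at 0 are not drawn, and Eef1a2 and Eif4e1b have no group mean above 0.01. Eef1a1 and Eif5a lie at the right, and for most genes the 6 groups lie close together.

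A group of 4 genes was nearly silent. Eef1a2, the eEF1A form of muscle and neurons, had 0 of 276085704 gene reads over the 20 libraries, which by a floor of 3 counts allows up to 0.0109 RPM. Eif4e1b, an oocyte form of eIF4E, had 1 read. Eif4ebp3 had 9 reads in 2 libraries, and Eef1akmt3, a lysine methyltransferase of eEF1A, had 78 reads in 13 libraries. The first 3 of these failed the expression filter, so 59 of the 62 genes were tested. All other 58 genes had reads in each of the 20 libraries, Eif5a2 down to a single read in 1 of them. Several genes of the set have near-identical copies in the genome, and 52.6 to 57.8% of the table's alignments were not unique. Eif4a-ps4, an eIF4A pseudogene, averaged 3125 ± 498 normalized counts over the 20 libraries (SD), against 1820 for Eif4a1. Eif5al3-ps averaged 2211 ± 402 normalized counts. Levels of Eif4a1, Eif5a, Eif1 and Eif3e, whose pseudogenes are listed with reads, are therefore uncertain, and so may be those of the close pairs named below.

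Paralogs were set side by side by their level per length. Eif5a was at least 217-fold above Eif5a2, its rarely used paralog, in each library. Eif4a2 exceeded Eif4a1, the other eIF4A helicase, by a median ratio of 1.68 (range 1 to 3.28) in MPP2, 1.73 (range 1.23 to 2.87) in MPP3 and 2.78 (range 1.7 to 3.6) in LT-HSC. In LT-HSC the ratio was 1.94 (range 1.7 to 2.75) in KO and 3.24 (range 2.78 to 3.6) in WT. Those groups did not overlap, by a small margin, which was noticed in the data and not tested. No share over other ratios is set beside it. Of all tested genes, 5% did not overlap between KO and WT in LT-HSC, and Eif4a2 itself is among them. Eif4g2, a scaffold that lacks the eIF4E-binding part, exceeded Eif4g1 by a median ratio of 4.82 (range 1.34 to 10.1) over the 20 libraries. Eif1b exceeded Eif1 by a median ratio of 1.76 (range 0.945 to 3.28). Without the scaling by length, Eif1 averaged 2407 and Eif1b 2276 normalized counts. Their order therefore depends on the exon lengths used, 2098 bases for Eif1 and 1125 for Eif1b. Eif1ax and Eif1a, which both encode eIF1A, were closest, with a ratio of 0.841 (range 0.425 to 1.53).

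The set varied little between libraries. The standard deviation of log2(normalized count + 1) over the 20 libraries had a median of 0.27 for the 59 tested genes and 0.73 for all 17160 tested genes. Levels differ between these lists. For the 53 genes of the set with a mean of at least 500 normalized counts the median was 0.26, and for all 6075 genes at that level it was 0.38. Eef1a1 had the smallest ratio between its highest and lowest library, 1.42, with 21000 to 29864 normalized counts. Eif3i and Eif3h followed at 1.43 and 1.48. The cap-binding scaffold Eif4g1 had a ratio of 4.38 and Eef1akmt2 of 5.11.

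Populations were compared to see whether translation factor genes change between stem cells and progenitors. Differences are on the log2(normalized count + 1) scale, averaged over genotypes, and tested with limma across all 17160 genes with Benjamini-Hochberg adjustment. A gene was called at an adjusted p under 0.05. In all, 5 genes passed in at least 1 comparison, Eif1ad, Eif3a, Eef2k, Eif2d and Eif1b, and all changed by less than 2-fold. Between MPP2 and LT-HSC 2 of the 59 were called, both higher in MPP2, where 7.32% of all tested genes were called and 2.24% were called higher. Between MPP3 and LT-HSC 2 of 59 were called, both higher in MPP3, where 7.4% of all tested genes were called and 3.22% were called higher. Between MPP2 and MPP3 3 of 59 were called, 2 higher and 1 lower in MPP2, where 6.88% of all tested genes were called, 2.24% higher and 4.64% lower. These counts are near or below the background and say nothing particular about the set. The groups did not overlap for 1 of 59 genes in each comparison, Eif3a between MPP2 and LT-HSC and Eef2k in the others, against 2.6% of all tested genes between MPP2 and LT-HSC, 4.66% between MPP3 and LT-HSC and 2.41% between MPP2 and MPP3.

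**Figure D2:**
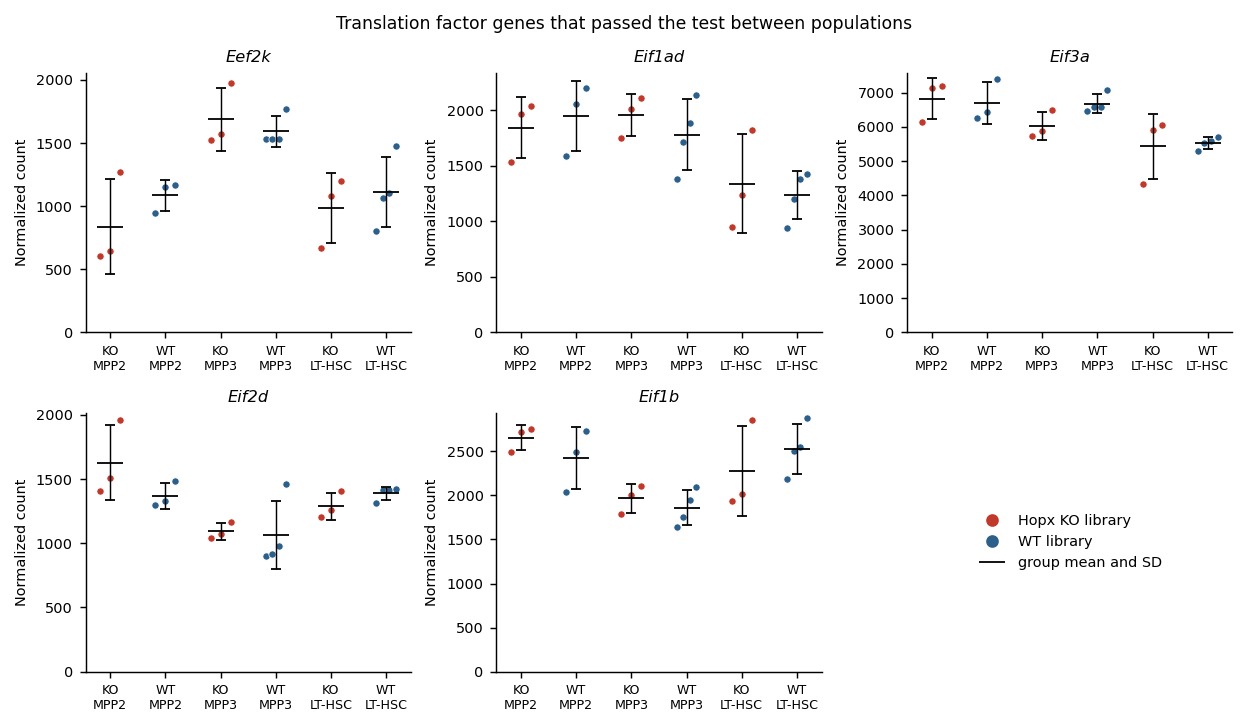
Normalized counts of the 5 called genes in every library, by group. Points are libraries (red, Hopx KO; blue, WT), black bars the group mean and SD, and the axis starts at 0. Eef2k stands highest in MPP3, Eif1ad lowest in LT-HSC, and Eif2d and Eif1b lowest in MPP3.

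Eef2k encodes the kinase that brakes elongation by phosphorylating eEF2 (chr7:120842831-120907450, GRCm38, plus strand). It had 601, 643 and 1273 normalized counts in KO MPP2 and 946, 1148 and 1167 in WT MPP2. MPP3 libraries had 1521, 1569 and 1977 in KO and 1529, 1533, 1534 and 1770.2 in WT. LT-HSC libraries had 672, 1083 and 1198 in KO and 806, 1062, 1106 and 1476 in WT. Every MPP3 library lay above every MPP2 and every LT-HSC library. The mean was 963 ± 285 in MPP2 (SD, n = 6) and 1633 ± 175 in MPP3 (SD, n = 7), a log2 difference of -0.82 (SE 0.19, limma adjusted p = 0.0147). The difference was -1.09 within KO (limma adjusted p = 0.0425) and -0.55 within WT (limma adjusted p = 0.509). Over all tested genes, 2.79% were called between MPP2 and MPP3 within KO and 0.431% within WT. These within-genotype values were not tested against each other. MPP3 averaged 1633 ± 175 and LT-HSC 1058 ± 261 (SD, n = 7 each), a log2 difference of 0.68 (SE 0.18, limma adjusted p = 0.0277). MPP2 and LT-HSC differed by -0.14 (95% interval -0.54 to 0.26). The numbers in the library titles fall into 4 runs, each with all 3 populations. These runs split the same libraries that gave the calls, so agreement within them is not separate support for any called gene. Within these runs MPP2 was below MPP3 in 4 of 4, with log2 differences of -1.31 to -0.38, and MPP3 was above LT-HSC in 4 of 4, with 0.05 to 0.91. The call between MPP3 and LT-HSC was lost without KO MPP3 replicate 2, WT MPP3 replicate 1, KO LT-HSC replicate 2, or WT LT-HSC replicate 1 or 4, with adjusted p of 0.0502 to 0.0943 in limma. Eef2, the kinase's substrate, averaged 12523 ± 2157 in MPP2 (SD, n = 6), 12875 ± 2417 in MPP3 and 12945 ± 1627 in LT-HSC (SD, n = 7 each). Per length, Eef2 exceeded Eef2k by a median ratio of 29.8 (range 15.8 to 47.4) in MPP2, 19.6 (range 13 to 23.3) in MPP3 and 28.5 (range 16.8 to 48) in LT-HSC.

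Eif1ad, a gene named for its eIF1A-like domain (chr19:5366741-5371526, GRCm38, plus strand), was higher in both progenitors than in LT-HSC. It had 1531, 1966 and 2034 normalized counts in KO MPP2 and 1591, 2053 and 2198 in WT MPP2. In MPP3 it had 1749, 2009.8 and 2112 in KO and 1379.6, 1718, 1888 and 2136 in WT. Its LT-HSC values were 948, 1239 and 1823 in KO and 941, 1200.2, 1380.2 and 1422 in WT. A single LT-HSC library reached the range of MPP2, and 3 reached the range of MPP3. MPP2 averaged 1895 ± 270.4 (SD, n = 6) and LT-HSC 1279 ± 305 (SD, n = 7), a log2 difference of 0.58 (SE 0.16, limma adjusted p = 0.0344). MPP3 averaged 1856 ± 266 (SD, n = 7), a log2 difference from LT-HSC of 0.56 (SE 0.15, limma adjusted p = 0.0306). Both progenitors were above LT-HSC in 4 of 4 runs of library numbers, by 0.39 to 0.76 for MPP2 and 0.24 to 0.74 for MPP3. MPP2 and MPP3 differed by 0.02 (95% interval -0.32 to 0.36). The call in MPP2 was lost without KO MPP2 replicate 2 or 3, WT MPP2 replicate 1 or 2, KO LT-HSC replicate 1 or 2, or WT LT-HSC replicate 3 or 4, with limma adjusted p of 0.0594 to 0.0964. That in MPP3 was lost without KO MPP3 replicate 2 or 3, WT MPP3 replicate 3 or 4, KO LT-HSC replicate 1 or 2, or WT LT-HSC replicate 3 or 4, with limma adjusted p of 0.0545 to 0.102. The call of Eif1ad in MPP2 was also lost with no filter (limma adjusted p = 0.051) and with edgeR on 20 libraries (adjusted p = 0.0523).

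Eif3a encodes the largest scaffold subunit of eIF3 (chr19:60761117-60790658, GRCm38, minus strand). It had 6139.8, 7129 and 7198 normalized counts in KO MPP2 and 6265, 6437 and 7395 in WT MPP2. In LT-HSC it had 4339, 5905 and 6056 in KO and 5287, 5524, 5578 and 5716 in WT. All 6 MPP2 libraries lay above all 7 LT-HSC libraries. MPP2 averaged 6761 ± 541 (SD, n = 6) and LT-HSC 5486 ± 565 (SD, n = 7), a log2 difference of 0.31 (SE 0.086, limma adjusted p = 0.036). It was positive in 4 of 4 runs of library numbers, at 0.13 to 0.44. MPP3 averaged 6397 ± 461 (SD, n = 7), a log2 difference from LT-HSC of 0.22 that was not called (limma adjusted p = 0.143). The call was lost without KO MPP2 replicate 2 or 3, WT MPP2 replicate 1 or 2, KO LT-HSC replicate 1, or WT LT-HSC replicate 2, 3 or 4, with limma adjusted p of 0.0547 to 0.101. Of the 14 eIF3 genes, 10 had a positive difference between MPP2 and LT-HSC, with a median of 0.12, and only Eif3a was called. Between MPP3 and LT-HSC 13 of 14 were positive, with a median of 0.09 and none called. Over all tested genes the medians were -0.11 and -0.00044 in these 2 comparisons. Most eIF3 genes have a mean of at least 500 normalized counts. Over all genes at that level the median between MPP2 and LT-HSC was higher, and positive. For MPP3 and LT-HSC no median at that level is set beside these values. No share of positive differences over all genes is set beside these counts.

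Eif2d and Eif1b were higher in MPP2 than in MPP3. eIF2D can place a tRNA on the ribosome without GTP and also acts in ribosome recycling. Eif2d (chr1:131153181-131187658, GRCm38, plus strand) had 1410.2, 1512 and 1960.0 normalized counts in KO MPP2 and 1295, 1326 and 1486 in WT MPP2. MPP3 libraries had 1039, 1072 and 1168 in KO and 898, 919.9, 976 and 1460.3 in WT. A single WT MPP3 library reached the range of MPP2. MPP2 averaged 1498 ± 242 (SD, n = 6) and MPP3 1076 ± 193 (SD, n = 7), a log2 difference of 0.48 (SE 0.12, limma adjusted p = 0.0277). eIF1 keeps the scanning ribosome open until the start codon is found. Eif1b, a paralog of Eif1 (chr9:120492232-120495330, GRCm38, plus strand), had 2494, 2724 and 2750.3 normalized counts in KO MPP2 and 2043, 2489.8 and 2734 in WT MPP2. In MPP3 it had 1789.9, 2003 and 2109 in KO and 1646, 1760.3, 1951 and 2093 in WT. A single WT MPP2 library fell within the range of MPP3. MPP2 averaged 2539 ± 271 (SD, n = 6) and MPP3 1907 ± 178 (SD, n = 7), a log2 difference of 0.40 (SE 0.11, limma adjusted p = 0.0389). Both genes were higher in MPP2 in 4 of 4 runs of library numbers, Eif2d by 0.41 to 0.77 and Eif1b by 0.21 to 0.57. LT-HSC lay nearer to MPP2, with means of 1347 ± 88.8 for Eif2d and 2419 ± 383 for Eif1b (SD, n = 7). The difference of MPP3 from LT-HSC was -0.33 for Eif2d (limma adjusted p = 0.129) and -0.31 for Eif1b (limma adjusted p = 0.104), and neither was called. The call of Eif2d was lost without KO MPP2 replicate 3, WT MPP2 replicate 1 or 2, KO MPP3 replicate 1, 2 or 3, or WT MPP3 replicate 4, with limma adjusted p of 0.0514 to 0.0774. That of Eif1b was lost without KO MPP2 replicate 1, 2 or 3, WT MPP2 replicate 1 or 2, KO MPP3 replicate 1, 2 or 3, WT MPP3 replicate 2 or 3, or WT LT-HSC replicate 2 or 4, with limma adjusted p of 0.0509 to 0.114. The call of Eif1b was also lost with TMM scaling (limma adjusted p = 0.0522), with no filter (0.0619), with edgeR on 20 libraries (0.0544) and with voom (0.055), and it held in 16 of 36 alternative settings. That of Eif2d was also lost without the libraries numbered 52 to 54 (limma adjusted p = 0.0599).

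**Figure D3:**
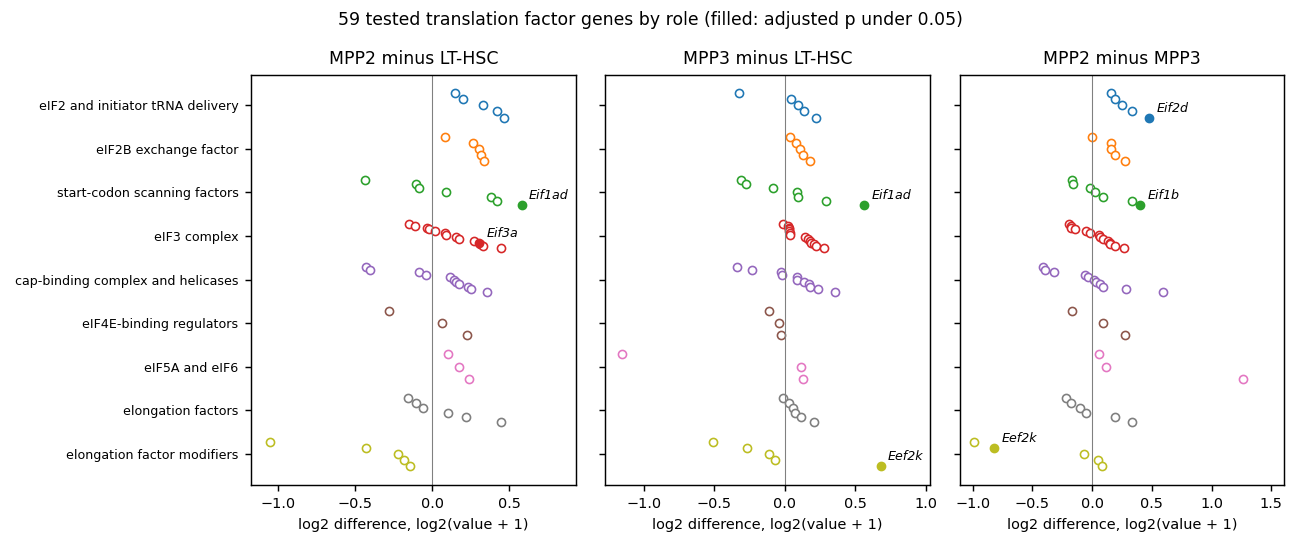
Difference of log2(normalized count + 1) for the 59 tested genes, by role, in MPP2 minus LT-HSC, MPP3 minus LT-HSC and MPP2 minus MPP3 (averaged over genotypes). Filled points passed an adjusted p under 0.05 and are named. Most points lie within 0.5 of 0. The 5 genes grouped as eIF2 and initiator tRNA delivery and the 5 eIF2B genes lie right of 0 in MPP2 minus LT-HSC.

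Other genes did not pass, and their direction is given by counts. In MPP2 minus LT-HSC 39 of the 59 differences were positive, with a median of 0.14 on the log2 scale, against -0.11 over all tested genes and 0.04 over genes with a mean of at least 500 normalized counts. The 5 genes grouped as eIF2 and initiator tRNA delivery all had positive differences, with a median of 0.33. This group holds the eIF2 subunit genes Eif2s1, Eif2s2 and Eif2s3x. It also holds Eif2a and Eif2d, which are not genes of eIF2 subunits. The subunit genes Eif2s1 and Eif2s2 had 0.33 and 0.42, with limma adjusted p of 0.106 and 0.0883. The 5 eIF2B genes also had positive differences, with a median of 0.31 and none called. The 5 genes for elongation factor modifiers were negative, with a median of -0.22 and none called. In MPP3 minus LT-HSC 41 of 59 were positive, with a median of 0.08 against -0.00044 over all tested genes. In MPP2 minus MPP3 37 of 59 were positive, with a median of 0.06 against -0.09 over all tested genes. For MPP3 minus LT-HSC and MPP2 minus MPP3, no median over genes with a mean of at least 500 normalized counts is set beside these values. The comparisons share libraries, so these counts are not independent of each other.

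Markers of cycling cells moved with MPP2. Of 12 proliferation genes, 8 were called higher in MPP2 than in LT-HSC and 6 higher in MPP2 than in MPP3, while none was called between MPP3 and LT-HSC. Of all tested genes, 2.24% were called higher in MPP2 than in LT-HSC and 2.24% higher in MPP2 than in MPP3. Between MPP3 and LT-HSC 7.4% were called. The summed level of the 12 proliferation genes was 48439 to 71174 in MPP2, 25507 to 47298 in MPP3 and 22430 to 40330 in LT-HSC. None of the 12 was at 0 in any group mean. The part of cycling cells in the results for Eif1ad, Eif3a, Eif2d, Eif1b and Eef2k was not tested. With edgeR on the whole reads recovered from the values of all 20 libraries, 1, 2 and 2 of the 59 genes were called in MPP2 minus LT-HSC, MPP3 minus LT-HSC and MPP2 minus MPP3. On the 18 libraries whose whole reads could be checked by the value of 1 read, edgeR called none of the 59 in these 3 comparisons. That test called 1.45% of all genes between MPP2 and LT-HSC, 4.58% between MPP3 and LT-HSC and 1.98% between MPP2 and MPP3, and 8, 7 and 9 of the 59 had an unadjusted p under 0.05. Without the libraries labelled WT LT-HSC replicate 4 and WT MPP2 replicate 3, limma called 0 of 59 between MPP3 and LT-HSC, with 9 at an unadjusted p under 0.05, and the adjusted p was 0.0519 for Eif1ad and 0.0582 for Eef2k there. Eif3a between MPP2 and LT-HSC then had a limma adjusted p of 0.0566.

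Several calls were also lost without the 5 libraries with high mature neutrophil markers, a fit that holds fewer libraries. The part of these libraries in the results was not tested. KO LT-HSC replicate 1 had a neutrophil sum of 24837 and a B cell sum of 4246, against 56.2 and 265 and against 574 and 715 in the other KO LT-HSC libraries. It was also the lowest library for Eif3a, at 4339. Without all 5 libraries, an alternative chosen after seeing the data, limma called 0 of 59 between MPP2 and LT-HSC, 0 between MPP3 and LT-HSC and 1, Eif2d, between MPP2 and MPP3, with 5, 8 and 5 at an unadjusted p under 0.05. Of all genes tested on these 15 libraries, 2.48%, 5.3% and 1.92% were called in the 3 comparisons. Without them Eif3a had a difference of 0.20 in MPP2 minus LT-HSC (limma adjusted p = 0.251), and Eif1ad had 0.46 there and 0.51 in MPP3 minus LT-HSC (limma adjusted p = 0.161 and 0.106). Eef2k had 0.75 in MPP3 minus LT-HSC and -0.80 in MPP2 minus MPP3 (limma adjusted p = 0.12 and 0.129). In MPP2 minus MPP3 Eif1b had 0.33 (limma adjusted p = 0.261) and Eif2d 0.59 (limma adjusted p = 0.0346).

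The cap-binding genes held no call. Eif4e averaged 3780.4 ± 584 in MPP2 (SD, n = 6), 3121 ± 435 in MPP3 and 3147 ± 519 in LT-HSC (SD, n = 7 each). Its difference between MPP2 and MPP3 was 0.28 (limma adjusted p = 0.212). Eif4g1 averaged 1922 ± 970.2 in MPP2 (SD, n = 6) and 1164 ± 194 in MPP3 (SD, n = 7), a difference of 0.59 (limma adjusted p = 0.191). Its highest library was KO MPP2 replicate 1 at 3680.5 and its lowest WT MPP2 replicate 3 at 841. Without that lowest library the difference was 0.80 and was called (limma adjusted p = 0.0407). Eif4a2 averaged 4198 ± 1287 in MPP2 and 5542 ± 978 in LT-HSC, a difference of -0.40 (limma adjusted p = 0.188). Eif4ebp1 averaged 2590.0 ± 811 in MPP2, 2048 ± 345 in MPP3 and 2164 ± 406 in LT-HSC. The abundant factors Eif5a and Eef1a1 differed between MPP2 and LT-HSC by 0.24 (95% interval -0.02 to 0.49) and -0.11 (95% interval -0.26 to 0.05). Eif6, which keeps the large ribosomal subunit free of the small one, ranged from 2162 to 4236 over the 20 libraries with no call. Eif5a2 ranged from 0.891 to 220.1 and so varied widely between libraries. Its 95% interval between MPP2 and LT-HSC spanned -2.26 to 2.47, so little can be said of it.

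Eif1ax and Eif2s3x are X-linked, and the levels of Xist and of Y-linked genes marked 9 libraries as female and 11 as male. Eif1ax had 3792, 4482 and 5942 normalized counts in KO MPP2 and 5071, 5320.3 and 5998 in WT MPP2. LT-HSC libraries had 4057, 4212 and 4748 in KO and 2724, 3073, 3561 and 3752 in WT. It was the gene nearest to a call between MPP2 and LT-HSC after Eif1ad and Eif3a, with a difference of 0.42 (SE 0.13, limma adjusted p = 0.0592). It was called in 8 of 36 alternative settings. The limma adjusted p was 0.0453 with sex as a covariate, 0.0393 with the run of library numbers as a covariate and 0.0488 with TMM scaling. Leaving out KO MPP2 replicate 1, WT MPP3 replicate 1 or WT MPP3 replicate 3 gave 0.0284 to 0.0443, DESeq2 gave 0.0274 and voom 0.0248. Over the 36 settings the adjusted p ran from 0.0248 to 0.789. Eif1ax ranged from 2724 to 5998 in female and 2800 to 5942 in male libraries. Eif2s3x, for the third eIF2 subunit, ranged from 57.7 to 147 in female libraries, with a median of 117, and from 39.9 to 105 in male libraries, with a median of 65.1. Its Y-linked copy Eif2s3y was at 1004 to 2362 in male and at 0 to 0.878 in female libraries. Over all libraries Eif2s3x averaged 86.8, against 3919 for Eif2s1 and 1460 for Eif2s2, the genes of the other eIF2 subunits. Alignments that were not unique are not in these counts, so the level of Eif2s3x is uncertain. Whether its low level comes from this was not tested. Eif2s3x escapes X inactivation in mice, as background.

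Hopx KO and WT were compared within each population, over their average and for a difference of the KO effect between populations. None of the 59 genes was called in any of these 5 tests. Of all 17160 tested genes limma called 0.00583% in LT-HSC, 0.0117% in MPP2, 0.00583% in MPP3, 0.0117% in the average and 0% for the difference between populations. This background depends on 1 library and on the tool. Without KO MPP2 replicate 2 limma called 338 genes (1.87%) in MPP2, 72 (0.399%) in the average and 84 (0.465%) for the difference between populations, with 0 of the 59 among them. DESeq2 called 21 genes (0.123%) in LT-HSC, 111 (0.65%) in MPP2, 22 (0.129%) in MPP3, 54 (0.316%) in the average and 4 (0.0234%) for the difference, again with 0 of the 59. At an unadjusted p under 0.05 there were 1, 0, 2, 1 and 0 of the 59 genes in these tests, against 2.66%, 7.88%, 2.02%, 5.03% and 3.07% of all tested genes. edgeR on 18 libraries called 0 of 59 in each test, with 2, 4, 3, 6 and 1 at an unadjusted p under 0.05. The median absolute log2 difference over the 59 genes was 0.10 in LT-HSC, 0.15 in MPP2, 0.12 in MPP3 and 0.09 in the average.

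The intervals say how large a KO effect could be. In the average over populations, the 95% interval lay within 2-fold either way for 57 of 59 genes and within 1.5-fold for 51. The other 2, Eif5a2 and Eef1akmt3, have few reads, and their intervals ran over -2.15 to 1.67 and -1.59 to 1.49 on the log2 scale. In single populations 54 genes in LT-HSC, 49 in MPP2 and 52 in MPP3 had an interval within 2-fold. For Eef1a1, KO averaged 25010.5 ± 2779 (SD, n = 9) and WT 23948 ± 1798 (SD, n = 11), with an interval of -0.06 to 0.19. For Eef2, KO averaged 13118 ± 1379 and WT 12529 ± 2407, with an interval of -0.15 to 0.34. For Eif4e, KO averaged 3425 ± 617 and WT 3249 ± 549, with an interval of -0.15 to 0.28. For Eif5a, KO averaged 24639.5 ± 3462 and WT 22737 ± 3929.6, with an interval of -0.09 to 0.32.

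**Figure D4:**
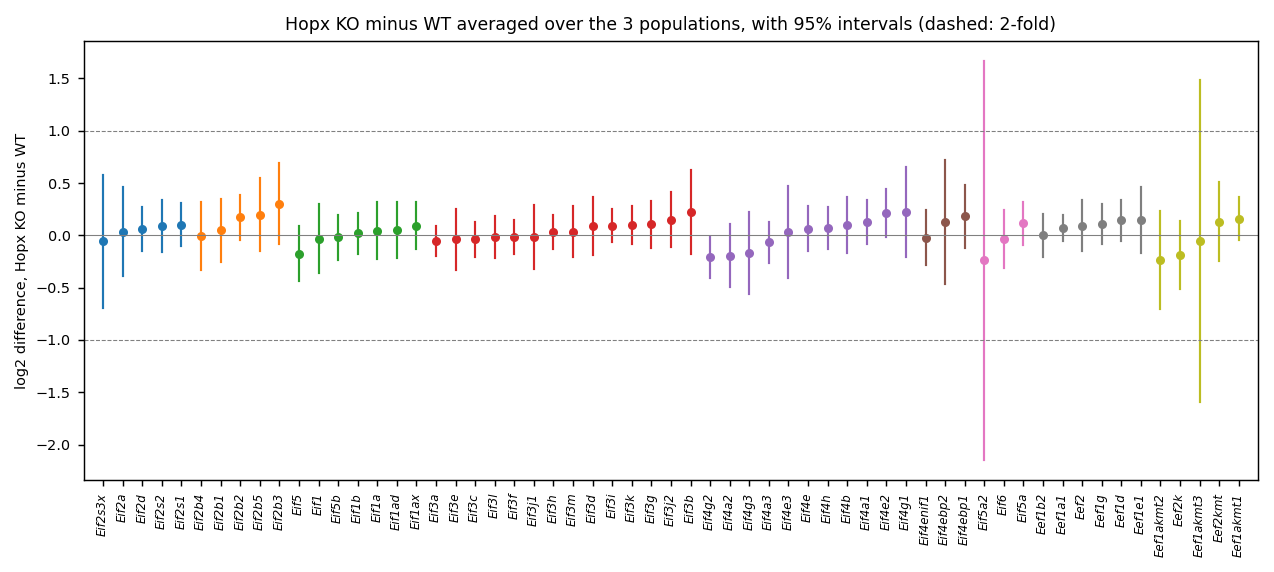
Hopx KO minus WT, averaged over the 3 populations, for the 59 tested genes. Points are log2 differences, vertical lines 95% intervals, colours roles as in the plot of levels, and dashed lines mark 2-fold. All but Eif5a2 and Eef1akmt3 have an interval inside the dashed lines, and no gene passed the test.

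The genes with the smallest p in each test are given as values. Eif4g2, a scaffold for initiation without eIF4E, had 7195, 8295 and 9138 normalized counts in KO MPP3 and 9575, 9644, 10925 and 12057 in WT MPP3, and these groups did not overlap. Its difference was -0.36 (SE 0.16, unadjusted p = 0.0329, limma adjusted p = 1). In MPP2 it had 6885, 8183 and 10739.5 in KO and 9208, 10358 and 11868 in WT, a difference of -0.30 (limma adjusted p = 0.698). Its LT-HSC values were 7956, 8178 and 9539.6 in KO and 6951, 7858, 8855 and 9924 in WT, a difference of 0.04. The average was -0.21 (limma adjusted p = 0.857). Within runs of library numbers that held both genotypes, KO MPP3 was below WT in 2 of 2, with log2 differences of -0.47 to -0.42, and KO MPP2 in 2 of 2, with -0.59 to -0.17. Each of these differences rests on 1 KO library and 1 or 2 WT libraries. KO MPP3 replicate 3 was female, and WT MPP3 replicates 3 and 4 of the same run were male. KO MPP2 replicate 1 was female, and WT MPP2 replicate 1 of the same run was male. Genotype and sex go together in these cases.

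In LT-HSC Eif1ax had the smallest p, with the values given above. All 3 KO libraries lay above all 4 WT libraries, and the difference was 0.41 (SE 0.18, unadjusted p = 0.0349, limma adjusted p = 1). The 2 female KO libraries had 4057 and 4212 and the female WT library 2724. The male KO library had 4748 and the 3 male WT libraries 3073 to 3752. In MPP2 the KO difference was -0.23 and in MPP3 0.09. Eif4e3, a cap-binding paralog of eIF4E, had 242, 284 and 436 in KO LT-HSC and 424, 485, 579 and 593 in WT LT-HSC, a difference of -0.73 (limma adjusted p = 1). Its KO difference was 0.50 in MPP2 and 0.32 in MPP3. The test of a difference between populations gave an unadjusted p of 0.0553 (limma adjusted p = 1), the smallest of the 59. KO and WT did not overlap for 4 of 59 genes in LT-HSC, 0 of 59 in MPP2 and 3 of 59 in MPP3, where 5%, 5.93% and 3.93% of all tested genes did not overlap. The 4 in LT-HSC were Eif1ax, Eef1akmt1 and Eif3j2, higher in all KO libraries, and Eif4a2, lower in all KO libraries. Eif4a2 had 3999, 4479.7 and 5296 in KO LT-HSC and 5991, 6183, 6353 and 6493 in WT LT-HSC (limma adjusted p = 1). The 3 in MPP3 were Eif4g2, Eef1d and Eif4e2. Eef1d, an exchange subunit of eEF1, had 3046, 3496 and 3909 in KO MPP3 and 2321, 2795, 2835 and 2863 in WT MPP3 (limma adjusted p = 1). Eif4e2, a cap-binding protein that represses translation, had 2087, 2186 and 2201 in KO MPP3 and 1372, 1615, 1867 and 1987 in WT MPP3 (limma adjusted p = 1). In MPP2 the smallest p belonged to Eef1akmt2, which averaged 668 ± 238 in KO and 1243 ± 785 in WT (SD, n = 3 each, limma adjusted p = 0.669). Eif2b3, an eIF2B subunit gene, averaged 1108 ± 215 in KO MPP2 and 785 ± 289 in WT MPP2 (limma adjusted p = 0.731). Eef1akmt1, for another eEF1A methyltransferase, averaged 1145 ± 168 in KO LT-HSC (SD, n = 3) and 909 ± 63 in WT LT-HSC (SD, n = 4, limma adjusted p = 1). In the average over populations Eif4g2, Eif4e2 and Eif2b2 had the smallest p, with differences of -0.21, 0.22 and 0.17.

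Regulators of these factors and other translation genes were followed in 6 lists. Of 13 genes for the kinases of eIF2, its phosphatase and their targets, 2 were lower in MPP2 than in LT-HSC and 2 lower in MPP3, with none higher, where 5.08% of all tested genes were called lower in MPP2 and 4.18% lower in MPP3. They were Ppp1r15a and Trib3 in both. Ppp1r15a, also called GADD34, brings a phosphatase to eIF2 and so ends the block on translation. It had 1462, 1559 and 2906 normalized counts in KO MPP2 and 553, 1214 and 1941 in WT MPP2. MPP3 libraries had 1647, 2584 and 2918 in KO and 449.8, 1978, 2022 and 2576 in WT. In LT-HSC it had 3801, 4355 and 5145 in KO and 2911, 4708, 5618 and 6153 in WT. Every LT-HSC library lay above every MPP2 library, but the lowest LT-HSC value, 2911, was close to the highest MPP2 value, 2906. Of all tested genes, 2.6% did not overlap between MPP2 and LT-HSC. LT-HSC overlapped with MPP3 in 1 library. The differences of Ppp1r15a from LT-HSC were -1.66 for MPP2 (SE 0.37, limma adjusted p = 0.0118) and -1.30 for MPP3 (SE 0.36, limma adjusted p = 0.0302). The call in MPP3 was lost without KO MPP3 replicate 1 or 2, KO LT-HSC replicate 1, 2 or 3, or WT LT-HSC replicate 1, 2 or 4, with limma adjusted p of 0.0504 to 0.0937. With edgeR on 18 libraries the adjusted p was 0.0698 in MPP2 and 0.0857 in MPP3.

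Trib3, a pseudokinase gene induced by the stress factors ATF4 and CHOP, had 0, 18.6 and 52.1 normalized counts in KO MPP2 and 0, 7 and 73.2 in WT MPP2. In MPP3 it had 3.15, 14.5 and 37.8 in KO and 11.1, 51.4, 79.2 and 123 in WT. LT-HSC libraries had 155, 208 and 281 in KO and 147, 259, 456 and 479.5 in WT. All 7 LT-HSC libraries lay above all 13 progenitor libraries. The differences were -4.77 for MPP2 (SE 0.99, limma adjusted p = 0.00888) and -3.27 for MPP3 (SE 0.96, limma adjusted p = 0.0446). The call in MPP3 was lost in 13 of 20 fits that left out 1 library. These left out WT MPP2 replicate 2, KO MPP3 replicate 1 or 3, WT MPP3 replicate 1, 2 or 4, KO LT-HSC replicate 1, 2 or 3, or WT LT-HSC replicate 1, 2, 3 or 4, with limma adjusted p of 0.0516 to 0.135. With edgeR on 20 libraries the adjusted p of Trib3 was 0.0577 in MPP2 and 0.0785 in MPP3. Some libraries are at 0, so the size of the difference depends on the setting. It was -5.59 to -3.03 for MPP2 and -4.18 to -2.51 for MPP3 over 36 alternative settings, with the smallest sizes at a pseudocount of 16. Without the 5 libraries with high neutrophil markers the limma adjusted p was 0.0924 for Trib3 in MPP2 and 0.17 in MPP3, and 0.146 for Ppp1r15a in MPP3. Atf4, the central factor of the stress response, averaged 1646 ± 338 in MPP2 (SD, n = 6), 1791 ± 373 in MPP3 and 1583 ± 355 in LT-HSC (SD, n = 7 each) and was not called. Ddit3, which encodes CHOP, averaged 499 ± 119 in MPP2, 487 ± 74.7 in MPP3 and 572 ± 118 in LT-HSC and was not called either.

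Of 21 genes of mTORC1 and of regulators of the cap-binding complex, 1 was lower in MPP2 than in LT-HSC, 1 lower in MPP3 than in LT-HSC and 1 higher in MPP2 than in MPP3. Of all tested genes 5.08%, 4.18% and 2.24% were called in these directions, so the counts say nothing particular about the list. Deptor, an inhibitor of mTOR, had 233, 421 and 634 normalized counts in KO MPP2 and 313, 365 and 439 in WT MPP2. Its LT-HSC values were 571, 617 and 738 in KO and 657, 1089, 1121 and 1341 in WT. A single MPP2 library reached the range of LT-HSC, and the difference was -1.07 (SE 0.24, limma adjusted p = 0.0118). With edgeR on 18 libraries the adjusted p was 0.052. Pdcd4 encodes an inhibitor of the helicase eIF4A. It had 5227, 7694 and 13056 in KO MPP2 and 4139, 5743 and 8439 in WT MPP2. MPP3 libraries had 2553, 2888 and 3171 in KO and 2731, 2909, 3567 and 3880.1 in WT. In LT-HSC it had 5940.1, 7974 and 9446 in KO and 2917, 5046, 7196 and 9871 in WT. Every MPP2 library lay above every MPP3 library, with a difference of 1.18 (SE 0.26, limma adjusted p = 0.0107). A single LT-HSC library, a WT one, fell within the range of MPP3, and the difference of MPP3 from LT-HSC was -1.12 (SE 0.25, limma adjusted p = 0.00763). Without the 5 libraries with high neutrophil markers neither was called (limma adjusted p = 0.118 for MPP2 minus MPP3 and 0.0959 for MPP3 minus LT-HSC).

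**Figure D5:**
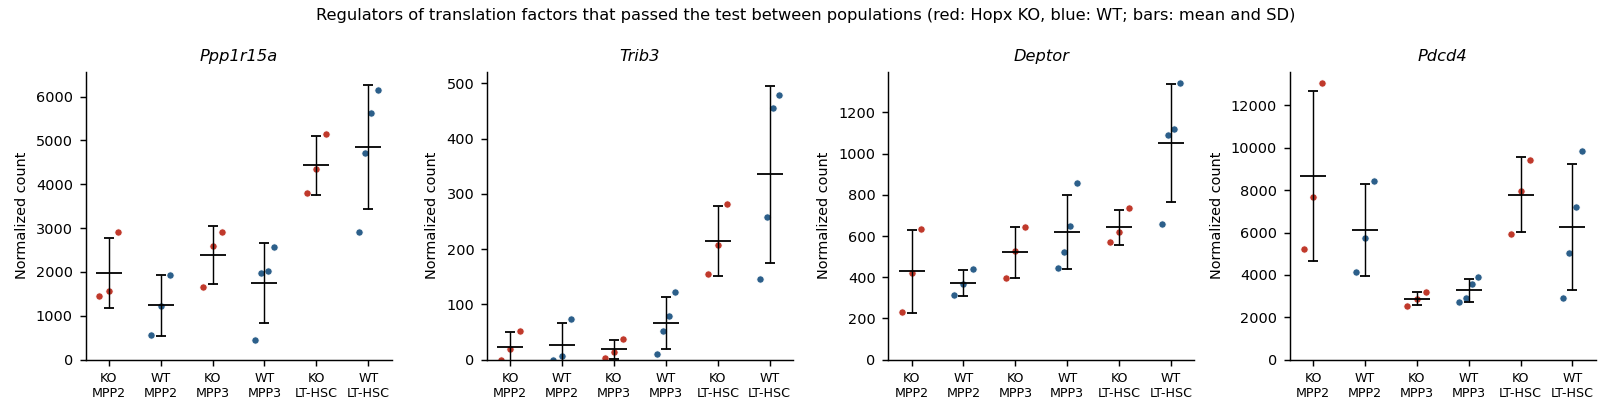
Normalized counts of Ppp1r15a, Trib3, Deptor and Pdcd4 in every library, by group. Points are libraries (red, Hopx KO; blue, WT), black bars the group mean and SD, and axes start at 0. Ppp1r15a and Trib3 stand highest in LT-HSC, and Pdcd4 lowest in MPP3.

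The other 4 lists of the translation machinery held no call between populations. Of 23 cytosolic aminoacyl-tRNA synthetase genes, which charge tRNAs, 20 had a positive difference between MPP2 and LT-HSC, with a median of 0.25. The median over all tested genes was -0.11 there, and it was higher over genes with a mean of at least 500 normalized counts. No share of positive differences over all genes is set beside the counts of these lists. They therefore say nothing particular about the lists. Cars averaged 573 ± 157 in MPP2 and 304 ± 119.7 in LT-HSC (limma adjusted p = 0.071), and Tars 2182 ± 530.0 and 1545 ± 112 (limma adjusted p = 0.081). Of 16 genes for factor assembly, hypusine and diphthamide, 14 were positive in that comparison, with a median of 0.25. Among them Cdc123, an assembly factor of eIF2, had a difference of 0.39 (limma adjusted p = 0.0745) and Denr, which acts in ribosome recycling, 0.37 (limma adjusted p = 0.106). Of 7 termination and rescue genes 4 were positive. Hbs1l had 0.59 (limma adjusted p = 0.0599) and the release factor gene Gspt1 0.51 (limma adjusted p = 0.129). Of 9 mitochondrial translation factor genes 3 were positive, with Tsfm at 0.56 (limma adjusted p = 0.0572). Between KO and WT none of the genes of these 6 lists was called in LT-HSC, MPP2, MPP3 or their average. The 3 smallest unadjusted p-values over these lists and the 4 tests were 0.00793 for Dph1 and 0.0116 for Mtor, in MPP2, and 0.0185 for Eif2ak4, also in MPP2. Mtor averaged 152 ± 90.3 in KO MPP2 and 289 ± 40.9 in WT MPP2 (SD, n = 3 each, limma adjusted p = 0.503).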

How the data were processed

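The deposited values are read counts per gene that the authors divided by 1 size factor per library (unit: signal). Per the submitters' processing notes, TopHat2 2.1.1, GRCm38, HTSeq 0.11.2 and DESeq were used. Neither the counting annotation nor its strand setting is stated by the labels or notes. Dividing each library by the value of 1 read gave whole reads for 100% of values (tolerance 1e-06). The 5 HTSeq summary entries were left out, among which alignments that were not unique took 52.6 to 57.8% of a library's entries. Gene names and exon lengths came from GENCODE annotation of GRCm38, and promoter windows from RefSeq. The exon length of a gene was the union of all its annotated exons, so ratios per length depend on that annotation.

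Genes passing edgeR's expression filter (17160) were tested with limma 3.58.1 in R 4.3.3 (trend and robust) on log2(value + 1), with 6 group means over 20 libraries and Benjamini-Hochberg adjustment. edgeR 4.0.16 and DESeq2 1.42.0 on recovered reads were alternatives. The code was tested on simulated data. Groups came from the labels, whose replicate numbers follow accession order. Genes were described in each library if called, and otherwise the 3 of smallest p in a comparison, together with a fixed set of X-linked, cap-binding and elongation genes. For the lists of other translation genes, called genes or the 2 of smallest p were named. The genes and lists were chosen with earlier results of these data known. The floor of 3 counts covers counting error only.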

Additional observations from a re-analysis of the deposited data

Results flagged for a closer look

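In 8 of 126 groups of 4 libraries examined, 1 library stood far from the other 3, where chance gives about 5% of groups. Eef1akmt3 was at 24.4 normalized counts in WT LT-HSC replicate 3 and at 0 to 0.95 in the other 3 libraries. Eef1d was at 2320 in WT MPP3 replicate 2, against 2800 to 2860. Eef2k was at 1770 in WT MPP3 replicate 1, against 1530 in each of the others. Eef2kmt, which encodes a methyltransferase of eEF2, was at 452 in WT LT-HSC replicate 1, against 993 to 1070. Eif2d was at 1310 in WT LT-HSC replicate 2, against 1410 to 1420, and at 1460 in WT MPP3 replicate 3, against 898 to 976. Eif3d was at 3480 in WT LT-HSC replicate 3, against 4030 to 4110. Eif5b, for the factor that joins the ribosomal subunits, was at 1590 in WT MPP3 replicate 3, against 2180 to 2260.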

How the results depend on the processing

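No paired analysis was possible because the replicate numbers follow accession order and pair no libraries. The runs of numbers in the library titles were used as a covariate instead. Between MPP2 and LT-HSC the count of called genes, 2 of 59, was 1 with no filter and 1 with edgeR on 20 libraries. It was 0 with edgeR on 18 libraries, an alternative chosen after seeing the data, 6 with voom, 4 with the run of library numbers as a covariate, 4 with sex as a covariate, 0 in KO libraries alone and 0 in WT libraries alone. Without the 5 libraries high in neutrophil markers, also chosen after seeing the data, the count was 0, and it was 0 between MPP3 and LT-HSC and 1 between MPP2 and MPP3. Leaving out 1 library at a time gave 0 to 3, with 0 in 7 of 20 fits. Between MPP3 and LT-HSC the count, 2 of 59, was 0 with edgeR on 18 libraries, 5 with voom, 0 without WT LT-HSC replicate 4 and WT MPP2 replicate 3, and 0 in KO or in WT libraries alone. Leaving out 1 library gave 0 to 2, with 0 in 3 of 20 fits. Between MPP2 and MPP3 the count, 3 of 59, was 0 with edgeR on 18 libraries and 0 in KO or in WT libraries alone, and leaving out 1 library gave 1 to 4. With the run of library numbers as a covariate these last comparisons kept counts of 2 and 3. The fits on 1 genotype and without the 5 libraries hold fewer libraries; for the other changes the cause was not tested. The 5 counts between KO and WT were 0 in each setting run. Of 128 single-gene values, no called one changed sign, and 3 of the 114 that were not called passed the threshold in some setting (Eif1ax and Eif4a2 between MPP2 and LT-HSC, Eif4g1 between MPP2 and MPP3).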
